A study of Homo sapiens with 4 samples.

Results

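The peaks described here lie on sequences of the hg19 assembly outside chromosomes 1 to 22, X, Y and M. They comprise contigs assigned to a chromosome without a position (names with _random), contigs assigned to none (chrUn_) and alternate versions of a chromosome region (names with _hap). All peaks with such a contig name were taken, without use of any measured value. They numbered 477 of 260069 and 301 of 245445 peaks in treated replicates 1 and 2, and 230 of 221342 and 298 of 223650 peaks in untreated replicates 1 and 2. The lists come from ATAC-seq, an assay that uses a transposase to tag open chromatin, where reads then pile up into peaks. The cells were BCPAP, an established human thyroid cancer line, with 2 libraries after 5-azacytidine and 2 libraries without treatment. 5-Azacytidine is built into nucleic acids in place of cytidine and binds DNA methyltransferases, so that methylation is lost as cells divide. The labels do not say whether each library had a culture of its own, so p-values measure a spread that may be technical.

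These contigs hold sequence that could not be placed in the assembly, often because it is repeated. Human ribosomal RNA genes lie in tandem arrays on the short arms of the acrocentric chromosomes. Each unit has a part transcribed by RNA polymerase I, which yields the small and large ribosomal RNAs, and an intergenic spacer. A cell uses only some of its copies: silent copies carry methylated DNA, while active copies are largely free of nucleosomes. The assembly holds few of the copies, so that reads from many copies can align to the same contig sequence. Of the contigs described here, chrUn_gl000220 carries ribosomal RNA gene sequence. That annotation was taken as known, since no hg19 sequence was at hand to check it, and for the same reason no sequence is printed. Alternate haplotype contigs repeat sequence that is also present on the chromosome, and the 6 with chr6 names are versions of the major histocompatibility complex.

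Peak strength is given as summit coverage, the number of reads over the summit, which was recovered from the authors' fold enrichment as 5 times the fold over the lowest fold of the list, minus 1. It came out as a whole number for all peaks of each list within 0.01. Its lowest value is 4 in every list by the formula. The flat background that the folds imply was 0.898 and 0.875 in treated replicates 1 and 2, against 0.913 and 0.898 in untreated replicates 1 and 2. How many reads each library had is unknown. The libraries differed on the chromosomes: in the 105414 regions of chromosomes 1 to 22 and X with a peak in every list the median number of reads at the summit was 11 and 16 in treated replicates 1 and 2, against 23 and 18 in untreated replicates 1 and 2. Treated replicate 1 was thus the lowest and untreated replicate 1 the highest.

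The treated lists held more contig peaks than the untreated lists, and most of the excess was in treated replicate 1. The mean was 389 ± 124 in treated and 264 ± 48.1 in untreated cells (SD, n = 2 libraries each), a ratio of 1.47. Treated replicate 2, with 301 peaks, lay only 3 above untreated replicate 2, with 298. The log2 ratio of the means was 0.56. It was 0.19 without treated replicate 1 and 0.85 without treated replicate 2. By an exact two-sided permutation test p was 0.3333, and with 2 libraries a group no lower p exists, so no comparison of groups here could pass a threshold. On chromosomes 1 to 22 and X the ratio was 1.14, and both treated lists were above both untreated lists there too. A listed peak can be 1 of several summits of the same original peak. Counted as original peaks, the contigs held 393 and 207 in the treated lists, against 161 and 231 in the untreated lists. Without a single broad peak of chrUn_gl000220, described below, listed peaks numbered 436 and 258 in the treated lists, against 188 and 262. On both counts the groups overlapped.

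As a share of each list, the contig peaks did not separate the groups. They made up 0.183% of treated replicate 1 (95% Wilson interval 0.168 to 0.201) and 0.123% of treated replicate 2 (0.110 to 0.137). In untreated replicates 1 and 2 they made up 0.104% (0.0913 to 0.118) and 0.133% (0.119 to 0.149). Untreated replicate 2 thus lay between the treated libraries, and p was 0.667 for the share by an exact two-sided permutation test. The log2 ratio of the mean shares was 0.37. It was 0.049 without treated replicate 1, 0.63 without treated replicate 2, 0.20 without untreated replicate 1 and 0.56 without untreated replicate 2. These intervals cover counting error only, and peaks are not replicates.

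Peaks were listed on 40 contigs, and 25 of them had a peak in all 4 lists. Among these 25, the peak count of both treated lists was above that of both untreated lists on 4, below on 0 and overlapping on 21. Treated replicate 1 had the highest count on 15 of them. The 4 contigs were chrUn_gl000220, chr7_gl000195_random, chrUn_gl000219 with 17 and 9 peaks in treated replicates 1 and 2 against 6 and 6 in untreated replicates 1 and 2, and chrUn_gl000218 with 3 and 3 in the treated lists against 1 and 2 in the untreated lists. Over all 40 contigs, both treated lists were above both untreated lists on 6 and below them on 2. The 2 below had no peak in treated replicate 1, so the limit to the 25 contigs left them out. Only chrUn_gl000220 and chr7_gl000195_random had at least 20 peaks in every list. Counted as original peaks, chrUn_gl000220 had 60 and 39 in the treated lists, against 29 and 39 in the untreated lists. By that count chr7_gl000195_random had 71 and 52 in the treated lists, against 38 and 53. On neither were both treated lists then above both untreated lists. The total over chromosomes 1 to 22 and X was also higher in both treated lists, and single chromosomes were not compared here.

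**Figure D1:**
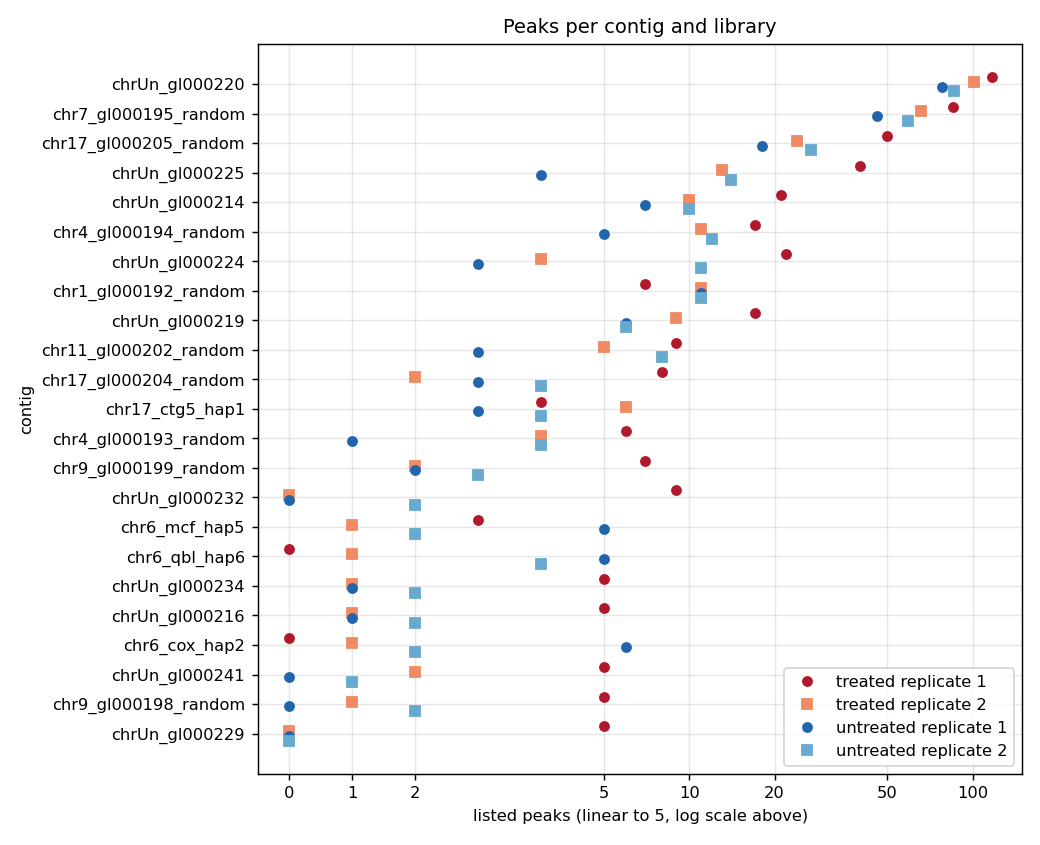
Listed peaks (horizontal axis, linear to 5 and logarithmic above) on each contig with at least 5 peaks in 1 library or more (vertical axis, ordered by mean count). Each point is 1 library: circles are replicates 1 and squares replicates 2. Treated replicate 1 lies far to the right on contigs such as chrUn_gl000225, with 40 peaks against 13 in treated replicate 2, while on chrUn_gl000220 both treated libraries, with 117 and 101 peaks, are above both untreated libraries, with 78 and 86.

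The direction was not the same for the 3 kinds of contig, which were 20 unplaced, 12 random and 8 alternate haplotype contigs. Unplaced contigs held 264 and 152 peaks in treated replicates 1 and 2, against 105 and 143 in untreated replicates 1 and 2. As original peaks they held 206 and 87 in the treated lists, against 55 and 95 in the untreated lists, where the groups overlapped. Contigs assigned to a chromosome without a position held 200 and 133 peaks in treated replicates 1 and 2, against 99 and 137 in untreated replicates 1 and 2, so that the groups overlapped. Alternate haplotypes had fewer peaks in both treated libraries, 13 and 16 against 26 and 18 in untreated replicates 1 and 2, a ratio of 0.659 (exact two-sided permutation test, p = 0.3333). The log2 ratio was 0.75 for unplaced contigs, and 0.29 without treated replicate 1. For random contigs it was 0.50, from 0.17 without treated replicate 1 to 0.76 without treated replicate 2, while leaving out untreated replicate 1 gave 0.28 and untreated replicate 2 gave 0.75. For alternate haplotypes it was −0.60, and −0.31 without untreated replicate 1. The difference between the kinds was not tested.

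Weak peaks made up most of the excess in treated replicate 1. Contig peaks with a summit coverage of 4 to 6 numbered 203 and 89 in treated replicates 1 and 2, against 51 and 105 in untreated replicates 1 and 2. Those with a coverage of 10 or more were closer together, at 160 and 156 in the treated lists against 139 and 139 in the untreated lists, a ratio of 1.14 (exact two-sided permutation test, p = 0.3333). Both treated lists were above both untreated lists for these stronger peaks. On chromosomes 1 to 22 and X, peaks of that strength numbered 81178 and 115284 in the treated lists and 127203 and 111677 in the untreated lists, where the groups overlapped and treated replicate 1 was lowest. The contigs' excess of stronger peaks lay mainly on 2 of them. On chrUn_gl000220 there were 70 and 73 in the treated lists against 58 and 56 in the untreated lists. On chr7_gl000195_random there were 32 and 29 in the treated lists against 25 and 25 in the untreated lists. On the contigs other than these 2 and chr17_gl000205_random there were 46 and 40 in the treated lists against 45 and 46 in the untreated lists.

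**Figure D2:**
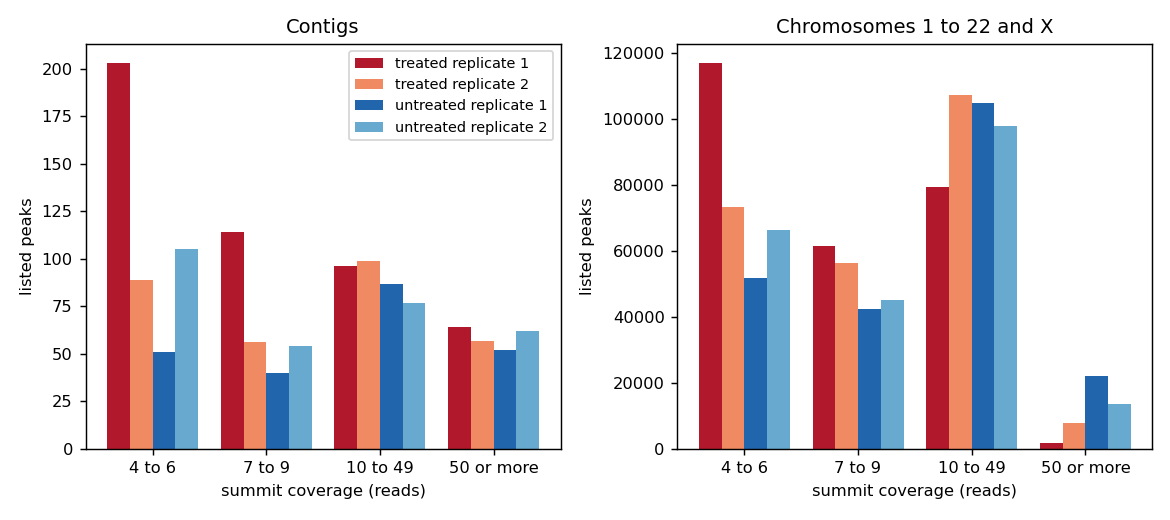
Listed peaks (vertical axes, linear from 0) by summit coverage in reads (horizontal axes) on the contigs (left) and on chromosomes 1 to 22 and X (right), with 1 bar per library. On the contigs the class of 50 or more reads held 64 and 57 peaks in treated replicates 1 and 2 and 52 and 62 in untreated replicates 1 and 2, while on the chromosomes it held 1851 and 7902 in the treated libraries and 22213 and 13687 in the untreated libraries.

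Counted as listed summits, very high peaks were more frequent on the contigs than on the chromosomes in every library. A summit coverage of 50 or more was reached by 13.4% and 18.9% of contig peaks in treated replicates 1 and 2 and by 22.6% and 20.8% in untreated replicates 1 and 2. On chromosomes 1 to 22 and X the shares were 0.713% and 3.22% in the treated lists and 10.05% and 6.13% in the untreated lists. The contigs' share exceeded that of the chromosomes by 12.7 percentage points (95% Newcombe interval 9.94 to 16.1) and 15.7 (11.7 to 20.5) in treated replicates 1 and 2, and by 12.6 (7.63 to 18.4) and 14.7 (10.5 to 19.6) in untreated replicates 1 and 2. A single broad peak of chrUn_gl000220, described below, held 40 and 29 of the 64 and 57 contig summits of that height in treated replicates 1 and 2, against 20 and 36 of the 52 and 62 in untreated replicates 1 and 2. Its summits are not separate peaks. Without it the difference was 4.79 (3.01 to 7.35) and 7.63 (4.39 to 12.0) percentage points in the treated libraries, and 6.98 (2.27 to 13.0) and 3.80 (0.733 to 8.02) in the untreated libraries. With each original peak counted a single time at its highest summit, it was 2.08 (0.849 to 4.22) and 3.94 (1.13 to 8.31) in the treated libraries, and 2.45 (−1.78 to 8.44) and 0.927 (−1.69 to 4.96) in the untreated libraries. On that count the intervals of both untreated libraries include 0.

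Most of the high summits lay on chrUn_gl000220, chr7_gl000195_random and chr17_gl000205_random. The other contigs held 1 and 2 of them in treated replicates 1 and 2, against 5 and 3 in untreated replicates 1 and 2. On all other contigs together the share of summits of 50 or more differed from that of the chromosomes by −0.269 (−0.636 to 1.76) and −1.41 (−2.73 to 3.17) percentage points in the treated libraries, and −4.36 (−7.60 to 2.57) and −3.75 (−5.32 to 0.640) in the untreated libraries. Each of these last intervals includes 0.

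The highest peak of every list lay on chrUn_gl000220, in the region from 117711 to 118953. Its summit coverage was 1278 and 1643 in treated replicates 1 and 2, against 1843 and 1856 in untreated replicates 1 and 2. As the authors' fold over background, it was 674 and 877 in the treated lists, against 964 and 978 in the untreated lists. The highest peak on chromosomes 1 to 22 and X reached 721 and 422 in the treated lists, against 452 and 526 in the untreated lists. Both treated libraries were thus lower than both untreated libraries at the summit of chrUn_gl000220, with means of 1461 ± 258 and 1850 ± 9.19 (SD, n = 2 each), a log2 ratio of −0.34 (exact two-sided permutation test, p = 0.3333). The ratio was −0.17 without treated replicate 1 and −0.53 without treated replicate 2. Set against the median of the shared chromosome regions of its own list, the order was not the same: the summit was 116 and 102.7 times that median in treated replicates 1 and 2, against 80.1 and 103.1 times in untreated replicates 1 and 2.

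This summit is the start of a single very broad peak. The peak caller gives all summits of an original peak the same number and letters in order, and 41 and 43 of the listed peaks of chrUn_gl000220 in treated replicates 1 and 2 carried the same number, against 42 and 36 in untreated replicates 1 and 2. The original peak began at position 117020 and 116954 in the treated lists and at 117131 and 117020 in the untreated lists. Its last listed summit lay 29.2 and 29.2 kb from that start in treated replicates 1 and 2, against 28.2 and 28.3 kb in untreated replicates 1 and 2. No other original peak in any list had a listed summit as far from its start: the farthest elsewhere was at 14147 and 19171 bp in the treated lists and 10786 and 11177 bp in the untreated lists. The letters ran to position 103 and 103 in the treated lists and to 103 and 98 in the untreated lists, so that 36.7% to 41.7% of the summits that the letters count were listed.

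The number of listed summits in the broad peak did not separate the groups, and its farther reach in the treated lists rested on 1 low summit. That summit, from 145909 to 146423, had 10 and 9 reads in treated replicates 1 and 2 and no listed peak in the untreated lists. The summits before it, in the region from 144802 to 145636, were listed in all 4 libraries, with a coverage of 142 and 98 in treated replicates 1 and 2 against 74 and 95 in untreated replicates 1 and 2. Summits of the broad peak can be missing from a list, as the letters show, so an unlisted summit in the untreated lists is not a measured absence.

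No peak was listed in any library in the 13163 bases before the highest summit, from 104548 to 117710. This was the longest stretch without a peak between the first and the last region of the contig, ahead of stretches of 5646 and 4271 bases. The peak numbers on its 2 sides were consecutive in all 4 lists, although 14 and 11 numbers were missing elsewhere on the contig in treated replicates 1 and 2 and 6 and 8 in untreated replicates 1 and 2. The end of the stretch lies inside the broad original peak, which began before its first listed summit, and summits of that peak can be unlisted. After 148416, where the last region ends, no peak was listed in any library. Which parts of the ribosomal RNA unit lie at these positions was not analysed here.

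**Figure D3:**
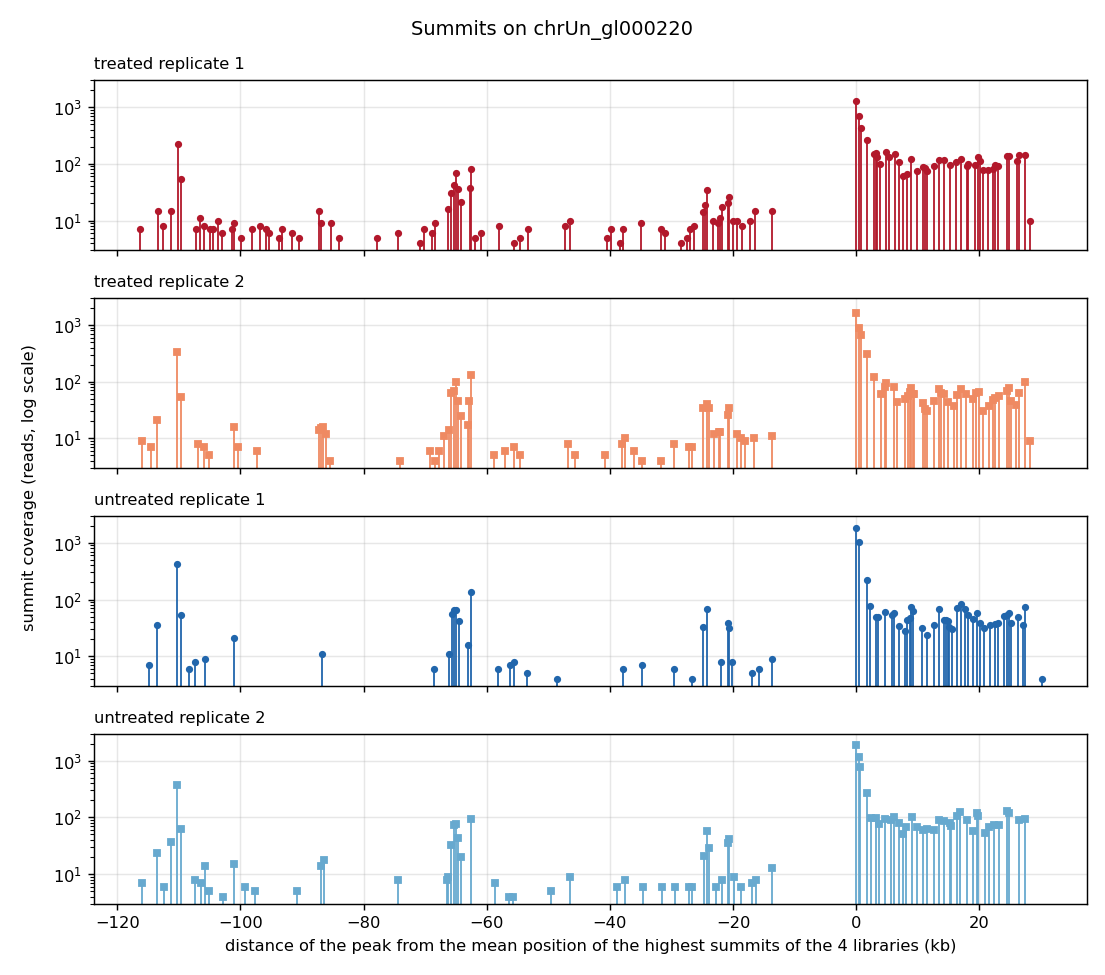
Summit coverage in reads (vertical axes, logarithmic) of every listed peak of chrUn_gl000220 against its distance in kb from the mean position of the 4 libraries' highest summits (horizontal axis), with 1 panel per library. In every panel the broad peak begins at the highest summit, with 1278 and 1643 reads in treated replicates 1 and 2 and 1843 and 1856 in untreated replicates 1 and 2, continues to the right, and has no listed peak directly to its left.

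Beyond its first 2 kb the broad peak continued at a lower level, and there the libraries stood in another order than at the summit. Positions were taken in steps of 1 kb from the end of the empty stretch, with the highest listed summit of each library per step. The next region after the highest, from 119428 to 122156, had 263 and 310 reads at its summit in treated replicates 1 and 2, against 219 and 270 in untreated replicates 1 and 2, so that the groups overlapped. The limit of 2 kb was chosen after the values were seen. Over the 23 later steps with a summit in all 4 libraries the median coverage was 115 and 64 in treated replicates 1 and 2, against 53 and 90 in untreated replicates 1 and 2. Treated replicate 1 was highest in 21 of the 23 steps and untreated replicate 1 lowest in 21, and untreated replicate 2 was above treated replicate 2 in 20. The groups therefore overlapped, with means of 89.5 ± 36.1 in treated and 71.5 ± 26.2 in untreated cells (SD, n = 2 each; exact two-sided permutation test, p = 0.667). The log2 ratio of 0.32 turned to −0.16 without treated replicate 1 and to −0.0080 without untreated replicate 1, and it was 0.69 without treated replicate 2 and 0.76 without untreated replicate 2.

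The library with the lowest coverage at shared chromosome regions had the highest coverage in this part of the contig. Relative to the median of those regions, the later part of the broad peak stood at 10.5 and 4 times in treated replicates 1 and 2, against 2.30 and 5 times in untreated replicates 1 and 2. In the first 2 kb the same ratio was 70.0 and 61.0 in treated replicates 1 and 2, against 44.8 and 59.1 in untreated replicates 1 and 2. The spread between libraries was thus larger in the later part than at its start. Of the 100 strongest listed summits of each list, chrUn_gl000220 held 27 and 5 in treated replicates 1 and 2, against 4 and 5 in untreated replicates 1 and 2. Summits of the broad peak count singly here, although they belong to the same original peak. The part that library quality has in this was not tested.

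**Figure D4:**
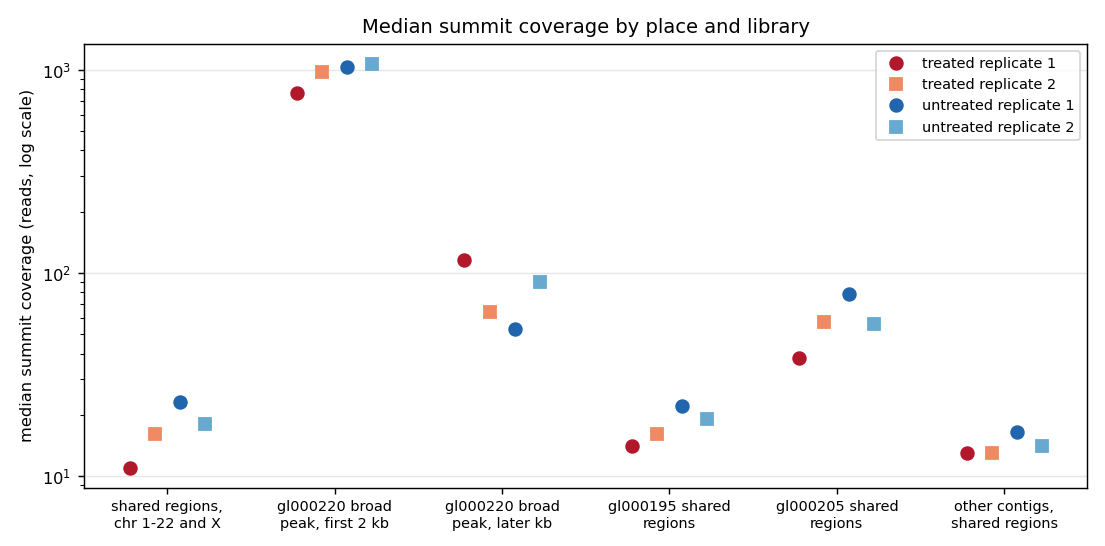
Median summit coverage in reads (vertical axis, logarithmic) in 6 sets of places (horizontal axis), with 1 point per library: circles are replicates 1 and squares replicates 2. Treated replicate 1 is lowest at shared chromosome regions, with 11 reads, and in the first 2 kb of the broad peak, and highest in the later part of the broad peak, with 115 reads.

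On the whole of chrUn_gl000220 there were 117 and 101 listed peaks in treated replicates 1 and 2, against 78 and 86 in untreated replicates 1 and 2. The log2 ratio of the means was 0.41 (exact two-sided permutation test, p = 0.3333), and 0.30 without treated replicate 1. Most of this excess lay before the empty stretch. That part of the contig held 76 and 58 listed peaks in treated replicates 1 and 2, against 35 and 50 in untreated replicates 1 and 2. With a coverage of 10 or more there were 29 and 31 in the treated lists, against 16 and 20 in the untreated lists, with means of 30 ± 1.41 and 18 ± 2.83 (SD, n = 2 each), a ratio of 1.67 (exact two-sided permutation test, p = 0.3333). Counted as original peaks, each with its highest summit, those of 10 or more numbered 15 and 12 in the treated lists, against 8 and 10 in the untreated lists. Original peaks of any strength numbered 59 and 38 in the treated lists, against 27 and 38 in the untreated lists, so that treated replicate 2 equalled untreated replicate 2. Peaks below 10 reads numbered 47 and 27 in treated replicates 1 and 2, against 19 and 30 in untreated replicates 1 and 2, where the groups overlapped, while those of 10 or more were more numerous in both treated libraries.

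The 3 highest sites before the empty stretch were listed in all 4 libraries. The region from 7427 to 8002 had 219 and 332 reads at its summit in treated replicates 1 and 2, against 428 and 377 in untreated replicates 1 and 2. It was lower in both treated libraries, but relative to the median of shared chromosome regions it stood at 19.9 and 20.75 times in the treated lists, against 18.6 and 20.9 times in the untreated lists, where the groups overlapped. The region from 54676 to 55685 had 80 and 129 reads in the treated lists, against 136 and 95 in the untreated lists. The region from 50848 to 54041 had 70 and 97 reads in the treated lists, against 66 and 77 in the untreated lists. At both of these the groups overlapped. Closer to the empty stretch the shared sites went both ways. The region from 92809 to 94373 had 35 and 40 reads in treated replicates 1 and 2, against 68 and 57 in untreated replicates 1 and 2. The region from 96813 to 98310 had 26 and 34 reads in the treated lists, against 38 and 42 in the untreated lists. Both were lower in the treated libraries, while weaker sites between and after them were higher. These are reads as they stand. In the shared chromosome regions both treated libraries were lower in 47.6% and higher in 4.39%. Relative to the median of those regions, both treated libraries were above in 11 of the contig's 31 shared regions and below in 0. None of these sites was thus lower in both treated libraries on that scale. On the chromosomes the shares were 27.2% above and 22.2% below. Regions of the broad peak are among the 31 and are not separate sites. The region from 94441 to 96385 had 17 and 13 reads in treated replicates 1 and 2, against 8 and 8 in untreated replicates 1 and 2. The region from 100445 to 102428 had 15 and 10 reads in the treated lists, against 6 and 8 in the untreated lists. At the last region before the stretch, from 103951 to 104547, the groups overlapped, with 15 and 11 reads in the treated lists against 9 and 13 in the untreated lists.

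On chr7_gl000195_random, assigned to chromosome 7 without a position, there were 85 and 66 peaks in treated replicates 1 and 2, against 46 and 59 in untreated replicates 1 and 2. The ratio of the means was 1.44, and the log2 ratio of 0.52 was 0.33 without treated replicate 1. The largest part of the excess was among low peaks: 35 and 23 had a coverage of 4 to 6 in the treated lists, against 14 and 22 in the untreated lists. A coverage of 50 or more was reached by 10 and 10 peaks in the treated lists and by 10 and 9 in the untreated lists. As original peaks, the contig held 71 and 52 in the treated lists, against 38 and 53 in the untreated lists, where the groups overlapped.

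The 3 strongest shared sites of this contig were lower in both treated libraries. The highest was the region from 29524 to 31563, whose summit had 241 and 357 reads in treated replicates 1 and 2, against 636 and 454 in untreated replicates 1 and 2. Its neighbour from 31805 to 33474 had 253 and 386 in the treated lists, against 484 and 455 in the untreated lists. The region from 142557 to 143360, the last with a listed peak, had 101 and 137 in the treated lists, against 216 and 182 in the untreated lists. At all 3 sites treated replicate 1 was lowest and both treated libraries were below both untreated libraries. Both treated libraries were also below in 47.6% of the shared chromosome regions and in 48.3% of the shared regions of this contig. Relative to the median of shared chromosome regions of the same list the first stood at 21.9 and 22.3 times in the treated lists, against 27.7 and 25.2 times in the untreated lists, and the third at 9.18 and 8.56 times in the treated lists, against 9.39 and 10.1 times in the untreated lists. The neighbour stood at 23.0 and 24.1 times in the treated lists, against 21.0 and 25.3 times in the untreated lists, where the groups overlapped. On that scale both treated libraries were below in 4 of the 29 shared regions of this contig, 13.8%, against 22.2% of the shared chromosome regions.

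**Figure D5:**
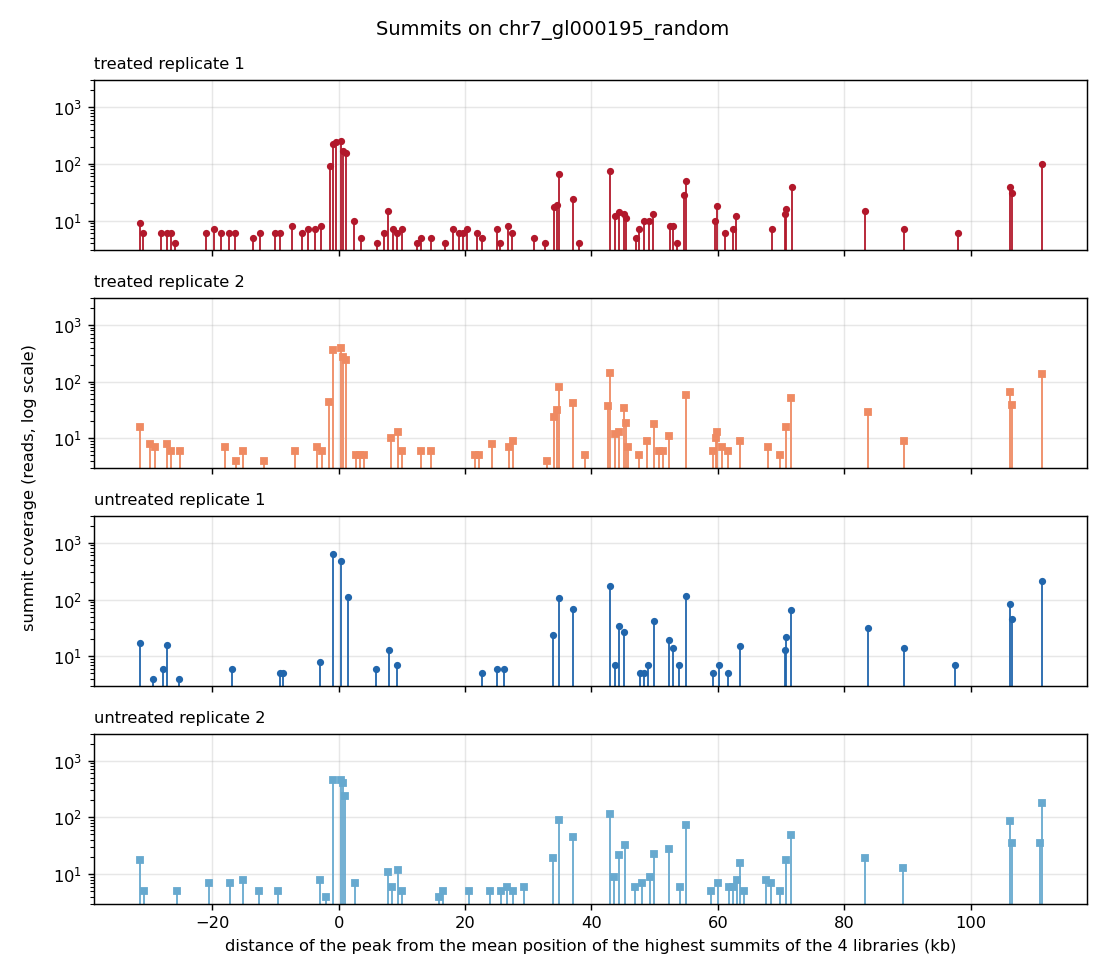
Summit coverage in reads (vertical axes, logarithmic) of every listed peak of chr7_gl000195_random against its distance in kb from the mean position of the 4 libraries' highest summits (horizontal axis), with 1 panel per library. The same high sites recur in all panels, with a highest summit of 253 and 386 reads in treated replicates 1 and 2 and 636 and 455 in untreated replicates 1 and 2, and treated replicate 1 has the most low summits between them.

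The third contig by peak number, chr17_gl000205_random, had 50 and 24 peaks in treated replicates 1 and 2, against 18 and 27 in untreated replicates 1 and 2. It was singled out after its values were seen. A block of high sites lay from 83876 to 88215, where the first region had a summit coverage of 222 and 341 in the treated lists, against 454 and 355 in the untreated lists, and the second region had 208 and 328 in the treated lists, against 360 and 257 in the untreated lists. Relative to the median of shared chromosome regions, the first stood at 20.2 and 21.3 times in the treated lists, against 19.7 and 19.7 times. The second stood at 18.9 and 20.5 times in the treated lists, against 15.7 and 14.3 times. On that scale both treated libraries were above at both, as in 27.2% of the shared chromosome regions. Peaks with a coverage of 10 or more were alike in number, 12 and 14 in the treated lists against 11 and 12 in the untreated lists. Those with a coverage of 4 to 6 numbered 28 and 6 in treated replicates 1 and 2, against 7 and 14 in untreated replicates 1 and 2, and those of 7 to 9 numbered 10 and 4 in the treated lists, against 0 and 1 in the untreated lists. Treated replicate 1 had the most in both classes, and treated replicate 2 was below both untreated libraries in the first class and above them in the second.

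Other contigs with a high shared site were few. On chrUn_gl000219 the region from 41839 to 42774 had 152 and 298 reads at its summit in treated replicates 1 and 2, against 273 and 158 in untreated replicates 1 and 2, so that the replicates differed more than the groups. On chr1_gl000192_random the region from 544525 to 545649 had 16 and 24 in the treated lists, against 78 and 41 in the untreated lists. Relative to the median of shared chromosome regions it stood at 1.45 and 1.5 times in the treated lists, against 3.39 and 2.28 times. Both treated libraries were below in 47.6% of the shared chromosome regions by reads and in 22.2% on that scale. Peaks of 10 or more on that contig numbered 2 and 4 in the treated lists, against 8 and 8 in the untreated lists. On the chromosomes the groups overlapped for peaks of that strength. Many low peaks of treated replicate 1 lay on chrUn_gl000225, with 40 peaks there and 13 in treated replicate 2, against 4 and 14 in untreated replicates 1 and 2. On chrUn_gl000224 it had 22, while treated replicate 2 had 4, against 3 and 11 in the untreated lists. On chrUn_gl000214 it had 21, while treated replicate 2 had 10, against 7 and 10 in the untreated lists. On these contigs the other 3 libraries overlapped, with untreated replicate 1 the lowest. On chrUn_gl000232 it had 9 peaks, while treated replicate 2 had 0, against 0 and 2 in the untreated lists.

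Among alternate haplotypes, chr17_ctg5_hap1 held the highest site. This contig is another version of the MAPT region of chromosome 17, which is known for a common inversion. The region from 492390 to 494345 had 42 and 47 reads at its summit in treated replicates 1 and 2, against 97 and 112 in untreated replicates 1 and 2. Relative to the median of shared chromosome regions it stood at 3.82 and 2.94 times in the treated lists, against 4.22 and 6.22 times. Both treated libraries were below in 47.6% of the shared chromosome regions by reads and in 22.2% on that scale. The contig held 4 and 6 peaks in the treated lists against 3 and 4 in the untreated lists. The versions of the major histocompatibility complex had few peaks. On chr6_cox_hap2 there were 0 and 1 in treated replicates 1 and 2, against 6 and 2 in untreated replicates 1 and 2, and on chr6_qbl_hap6 there were 0 and 1 in the treated lists against 5 and 4 in the untreated lists. These were the only 2 of the 40 contigs on which both treated lists were below both untreated lists, and their counts are small. Both treated lists were above both untreated lists on 6 of the 40. On chr6_mann_hap4 there were 4 and 4 in the treated lists against 3 and 4 in the untreated lists.

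To ask which contig sites appeared or disappeared, peaks that overlapped by 1 bp or more were joined across the 4 lists, which gave 521 regions. A region was gained with a peak in both treated and neither untreated list, and lost with the reverse. Of the 521, 27 were gained, 5.18% (95% Wilson interval 3.59 to 7.43), where 4.21% of the regions of chromosomes 1 to 22 and X were gained. Only 6 were lost, 1.15% (0.529 to 2.49), where 3.35% of those regions were lost. The gained share is near that of the chromosomes, and the interval of the lost share lies below it. Regions found in a single list made up 54.5% (50.2 to 58.7) on the contigs and 45.9% on the chromosomes, and 175 of these 284 contig regions were from treated replicate 1. No test was made of a single region.

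With stricter limits, where weaker listed peaks no longer counted, the gained share was above that of the chromosomes. A region gained in this way can hold listed peaks below the limit in the untreated lists. An example is chrUn_gl000220 from 94441 to 96385, with 17 and 13 reads in the treated lists against 8 and 8. Of the 27 regions gained in the full lists, 2 had a coverage of 10 or more in both treated lists. At a coverage of at least 10, a limit added after seeing the data, 8 of 142 contig regions were gained, 5.63% (2.88 to 10.7), where 1.85% of the chromosome regions were gained, and 7 were lost, 4.93% (2.41 to 9.83), where 7.6% of those regions were lost. At a −log10 q of at least 5, 7 of 156 were gained, 4.49% (2.19 to 8.97), where 2.23% of the chromosome regions were gained, and 6 were lost, 3.85% (1.77 to 8.14), where 6.88% were lost. The interval of the gained share lies above the chromosomes' share at the first limit and includes it at the second. With a reciprocal overlap of 50% required, 32 were gained, 4.71%, where 3.88% of the chromosome regions were, and 12 were lost, 1.77%, where 3.55% were.

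With a library left out, a peak in the other library of its group sufficed, and the counts grew on contigs and chromosomes. Without treated replicate 1, 73 contig regions were gained, 20%, where 19.2% of the chromosome regions were, and 15 were lost, 4.11%, where 6.51% were. Without treated replicate 2, 208 were gained, 41.8%, where 26.6% of the chromosome regions were, and 13 were lost, 2.61%, where 8.62% were. Without untreated replicate 1, 35 were gained, 6.86%, where 7.09% of the chromosome regions were, and 49 were lost, 9.61%, where 12.3% were. Without untreated replicate 2, 52 were gained, 10.4%, where 6.79% of the chromosome regions were, and 35 were lost, 7.01%, where 12% were. The lost share was below that of the chromosomes each time, and the gained share was above it in 3 of the 4. Without treated replicate 1 the Wilson intervals of the gained share (16.2 to 24.4) and lost share (2.51 to 6.67) included the chromosomes' share. Without untreated replicate 1 they did too (4.98 to 9.39 for gained and 7.34 to 12.5 for lost regions).

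Gained regions on the contigs were low. The median of their summits was 6 reads in both treated lists, and 2 of the 27 had a coverage of 10 or more in both. The strongest, on chrUn_gl000219 from 99988 to 100519, had 14 and 20 reads in treated replicates 1 and 2. It lay beside a region from 99372 to 99925 found in all lists, with 29 and 64 reads in the treated lists against 84 and 62 in the untreated lists. Next came chrUn_gl000220 from 98382 to 98895, with 10 and 12 reads in treated replicates 1 and 2, where a peak number was missing from the list of untreated replicate 1, so that a called peak may have been taken out there. The end of the broad peak, described above, was the third. On chrUn_gl000225 the region from 50652 to 51167 had 17 and 8 reads in treated replicates 1 and 2, also with a number missing from the list of untreated replicate 1, and on chrUn_gl000214 that from 136414 to 136924 had 14 and 8 reads in them. The 27 lay on 10 contigs, with 6 each on chrUn_gl000220 and chrUn_gl000225 and 5 on chr7_gl000195_random.

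Of the 6 lost regions, 3 lay on versions of the major histocompatibility complex. The strongest, on chr6_mcf_hap5 from 1315418 to 1316126, had a summit coverage of 11 and 7 in untreated replicates 1 and 2. On chr6_qbl_hap6 the region from 2617822 to 2618324 had 7 and 7 reads and that from 2467438 to 2467971 had 4 and 10 reads in them. All of these were low sites. In the same untreated libraries the region on chr1_gl000192_random from 506046 to 506607 had 4 and 7 reads, and that on chrUn_gl000220 from 61311 to 61944 had 7 and 4. No peak number was missing from the treated lists at these 5 places.

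In the 104 contig regions with a peak in all 4 lists, the median over regions was lower in both treated libraries. The median summit coverage was 15 and 16.5 in treated replicates 1 and 2, against 21.5 and 19 in untreated replicates 1 and 2, with means of 15.8 ± 1.06 and 20.3 ± 1.77 (SD, n = 2 each), a log2 ratio of −0.36 (exact two-sided permutation test, p = 0.3333). At the shared chromosome regions it was −0.60, and −0.36 without treated replicate 1. Relative to the median of those regions, which moves all values by that difference, the log2 ratio on the contigs turned to 0.27. Both treated libraries were below both untreated libraries in 34 of the 104 regions, 32.7% (24.4 to 42.2), against 47.6% of the shared chromosome regions. They were above in 9, 8.65% (4.62 to 15.6), against 4.39% of the chromosome regions.

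The counts varied between contigs, and this was not tested. On chr7_gl000195_random both treated libraries were below in 14 of 29 shared regions, 48.3% (31.4 to 65.6), near the 47.6% of the chromosomes, and above in 3. On chrUn_gl000220 they were below in 6 of 31, 19.4% (9.19 to 36.3), and above in 4. Relative to the median of shared chromosome regions, both treated libraries were above in 35 contig regions, 33.7% (25.3 to 43.2), against 27.2% on the chromosomes. On that scale they were below in 8, 7.69% (3.95 to 14.45), against 22.2% on the chromosomes. On chrUn_gl000220 both treated libraries were above in 11 of 31 regions on that scale and below in 0. Neighbouring regions of the broad peak belong to the same original peak, so they are not separate sites.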

How the data were processed

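The data are 4 peak lists in narrowPeak layout, 1 per library (2 treated with 5-azacytidine, 2 untreated). Per the labels, sequencing was paired-end at 2 Gb a sample, with reads of 101 bases in the sample description and 100 bases in the extract protocol. Trimmomatic, Bowtie2, Picard, MACS2 and hg19 are named in the submitters' processing notes, while versions, settings, the handling of reads that align to several places and any shift for the transposase were not given in the sources used here. Each library has its own peak calls, judging by the peak names. Nearly all intervals are 500 bp wide. The deposited peak score sums to 1000000 in each list, a scaling by the authors. The deposited fold enrichment and the deposited −log10 p and q are the authors' own values per peak, and they were used to describe, rank or filter peaks. Fold values gave the summit coverage, which was compared between lists as it stands. How the choice of alignments in repeated sequence shaped the coverage of these contigs was not tested.

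Regions were merged over the 4 lists at an overlap of at least 1 bp, and a list's coverage there is its highest summit. Group means over 2 libraries were tested two-sided with an exact permutation of all 6 assignments. Intervals are at 95%, by Wilson for shares and by Newcombe for their differences, and cover counting error alone. The regions named are the 3 shared regions of highest mean coverage on each contig with at least 20 peaks in every list, and the 5 gained and 5 lost regions with the highest value of the lower of their 2 coverages. Other regions were named after their values were seen. Members, rules and tests were chosen with earlier results of these data known. Alternatives were a −log10 q of at least 5, equal list length, merging of peaks up to 150 bp apart, a 50% reciprocal overlap, omission of each library and the replicate block. A coverage of at least 10, 1 summit per original peak, leaving out the broad peak or chrUn_gl000220, coverage relative to shared chromosome regions, and the shares of chromosome regions under each alternative were added after seeing the data. Merging was tested on simulated lists whose sites lay too far apart to join, and on a short chain of intervals. Summits as dense as those of the broad peak were not simulated. Scripts ran under Python 3.11.15 with scipy 1.17.1, pandas 2.3.3, numpy 2.4.6 and matplotlib 3.10.9.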

Additional observations from a re-analysis of the deposited data

How the results depend on the processing

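All 3 log2 ratios of contig peak counts and that of the share of the list stayed above 0 under every alternative run for them. With 1 summit per original peak, both treated lists were no longer above both untreated lists for any of the 3 counts. Directions of median coverage were less stable. On chrUn_gl000220 the log2 ratio of the medians, −0.72, turned to 0.036 at a −log10 q of at least 5, 0.070 at a coverage of at least 10 and 0.13 without the broad peak, and lay between −1.42 (without treated replicate 2) and −0.24 (without treated replicate 1) with 1 library left out. Over all contigs it was −0.47, between −0.87 and 0.087 when 1 library was left out (0.087 without untreated replicate 1). Relative to shared chromosome regions it turned to 0.17, that of chr7_gl000195_random (−0.47, and −0.046 without untreated replicate 1) to 0.18, and that of shared contig regions (−0.36) to 0.27. The cause was not tested. In brackets is the share of chromosome regions called the same way. The 27 gained regions (4.21%) were 7 at the stricter q (2.23%) and 8 at a coverage of at least 10 (1.85%), where weaker listed peaks no longer counted. The 6 lost regions (3.35%) were 12 at an overlap of 50% (3.55%). With 1 library left out, a condition of the definition falls away, and there were 35 to 208 gained (26.6% at 208, without treated replicate 2) and 13 to 49 lost regions (12.3% at 49, without untreated replicate 1). The replicate block gave 0.53 for all contig peaks, 0.41 on chrUn_gl000220 and 0.52 on chr7_gl000195_random, and turned no direction. The replicate numbers mark no shared batch in the labels. By the formula the lowest listed summit of each list has a coverage of 4, and sites weaker than that are not in the lists.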
